A study of Mus musculus with 6 samples.

Results

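The cytochrome P450 genes of the mouse testis were compared between Prss55-/- and wt males. Members were all genes on the array whose name starts with Cyp followed by a number, apart from Cyp11a1 and Cyp17a1, which were left out. This gave 80 genes of the 27376 feature names on the array, measured by 114 of its 41174 probes. The 6 samples were total RNA of whole testis, 3 from Prss55-/- mice (labelled Prss55KO) and 3 from wt mice, all males of 6 to 8 weeks on a mixed 129Sv/C57BL/6 background. Prss55 encodes a testicular serine protease anchored to the sperm membrane, and its knockout allele was made by homologous recombination in ES cells and carried in every cell of the animal. Each sample was hybridised to its own 1-colour Agilent array, and values are log2 signals after quantile normalization.

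Cytochrome P450s are haem enzymes that split molecular oxygen and insert an oxygen atom into a lipid or a foreign compound. Those of the endoplasmic reticulum take their electrons from P450 oxidoreductase (Por), and those of the mitochondrion from ferredoxin (Fdx1) and its reductase (Fdxr). Families 1 to 4 are best known from liver, where they act on drugs, toxins, fatty acids and steroids. The higher families have narrower substrates such as cholesterol, bile acids, steroid hormones, vitamin D and retinoic acid. In the testis, P450s are known above all from the steroid-making Leydig cells between the tubules, while aromatase, lanosterol demethylase and the retinoic acid hydroxylases also occur inside the tubules.

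On each array, between 69.5% and 72.9% of the spots were well above background, the flag that the scanner software sets for a signal clearly brighter than its surroundings, and no non-control spot was saturated. Over all pairs of arrays, within and between genotypes, signals correlated at 0.992 to 0.997. All Prss55-/- arrays shared 1 slide and the wt arrays lay on 2 others, so no slide held both genotypes and no comparison within a slide was possible. The only Prss55 probe, at chr14:64694275-64694333 in mm9, was lower on all Prss55-/- arrays, with 14.99 ± 0.08 against 15.89 ± 0.12 (log2, SD, n = 3 each) and 53.6% of the wt signal left (limma adjusted p = 0.010). The sources used here do not say whether the targeted part covers this probe. The paper reports that Prss55 expression was absent in the knockout, by RT-PCR for RNA and by Western blot and immunofluorescence for protein. A probe was tested if every array of Prss55-/-, or every array of wt, showed it well above background. This left 28606 probes, of which 1.21% passed an adjusted p of 0.05.

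The mouse Cyp2a group has 4 genes on the array, all within the Cyp2 cluster of chromosome 7, and its probes are shown because the result for Cyp2a4 depends on what they can bind. Cyp2a4 hydroxylates testosterone, and Cyp2a5 oxidises coumarin and nicotine. The substrates of Cyp2a12 also include testosterone. Positions are those of the array files, in mm9. Exon and UTR annotation of that build was not used here. The tested Cyp2a4 probe lies at chr7:27098659-27099724 on the plus strand, its 60 bases spread over 1066 bases of the genome, so that it crosses at least 1 intron. The Cyp2a12 probe lies at chr7:27821546-27821605 on the plus strand and the Cyp2a22 probe at chr7:27722746-27722805 on the minus strand. Further downstream in Cyp2a4 lie the other probes of that gene, at chr7:27099932-27099991 and chr7:27099972-27100031. The Cyp2a5 probe lies at chr7:27628169-27628228. From the second of these Cyp2a4 3′ probes (bases 31 to 60) and from the Cyp2a5 probe (bases 10 to 39), 30 bases each are shown, with the run that they share in capitals.
Cyp2a4, tested probe: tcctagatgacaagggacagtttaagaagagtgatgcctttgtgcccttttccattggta
Cyp2a12: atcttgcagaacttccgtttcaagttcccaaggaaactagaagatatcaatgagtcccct
Cyp2a22: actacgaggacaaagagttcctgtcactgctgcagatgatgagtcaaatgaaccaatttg
Cyp2a4, second 3′ probe: tcGTAGACTTGCAGAGGATATTTCAAAGGT
Cyp2a5, 3′ probe: aGTAGACTTGCAGAGGATATTTCAAAGGTa

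The array files list a transcript of Cyp2a4 and a transcript of Cyp2a5 for each of the 3 Cyp2a4 probes. The signal of these probes therefore cannot be assigned to Cyp2a4 alone, and "Cyp2a4" stands below for what its probes measure. The Cyp2a5 probe is listed with 2 transcripts. Of these, 1 belongs to Cyp2a5, and the other could not be matched to a gene symbol. The probe shares a run of 28 bases with the second Cyp2a4 3′ probe, and the stretch of 38 bases over which they align holds 3 mismatches. The tested Cyp2a4 probe shares no more than 8 bases in a row with any other Cyp2a probe. It shares no run of 25 bases with any of the 41174 probes of the array. The promoters of Cyp2a4 and Cyp2a5 are also alike. In the RefSeq promoter windows of GRCm38.p6, they differ at 5 of 299 aligned bases, which is 98.3% identity, and the longest run without a difference is 111 bases. Cyp2a12 and Cyp2a22 form the other close pair, with 89.3% identity over 289 bases.

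The same limit touches other P450 genes that stand side by side in the genome. Of the 114 member probes, 22 in 16 genes are listed with transcripts of more than 1 gene, and 10 of these were tested. The brighter Cyp2d9 probe is listed for Cyp2d9, Cyp2d11, Cyp2d34 and Cyp2d40, and the Cyp3a11 probe for Cyp3a11, Cyp3a41a, Cyp3a41b and Cyp3a44. Both Cyp2d9 probes share 27 bases with each other, so they are not independent measurements.

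Transcripts of 46 of the 80 genes (57.5%) were detected in testis, counting a gene as detected when it had a tested probe. By the same rule 70.1% of all feature names on the array were detected. Of the 46, 41 were above background on all 6 arrays. Cyp2a4 and Cyp7b1 entered only through wt and Cyp2b13, Cyp2w1 and Cyp3a25 only through Prss55-/-. A probe that enters through 1 genotype is favoured to be brighter there, which held for these 5 apart from Cyp3a25 (log2 difference -0.01). Another 11 were above background on some arrays without filling a genotype, and 23 on none. The looser flag of the scanner software, a signal significantly above background, was met by 65 genes.

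Detection was uneven across subfamilies, as the plot of genes by subfamily shows. All 7 Cyp4f genes were detected on all 6 arrays. They include the pseudogene Cyp4f41-ps, while products of the coding Cyp4f genes oxidise fatty acids and leukotrienes. Of the Cyp2c genes, which encode epoxygenases of arachidonic acid and drug-metabolising enzymes, 7 of 11 were detected, and of the Cyp2d genes 5 of 7. Cyp2j, the other epoxygenase subfamily, had no detected gene among 5. Cyp1a1 and Cyp1a2, the classical targets of the dioxin receptor, and Cyp2e1, the ethanol-oxidising P450 of liver, were above background on no array. Cyp1b1 and the single genes Cyp2f2, Cyp2r1, Cyp2s1 and Cyp2u1 were detected on all 6.

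**Figure D1:**
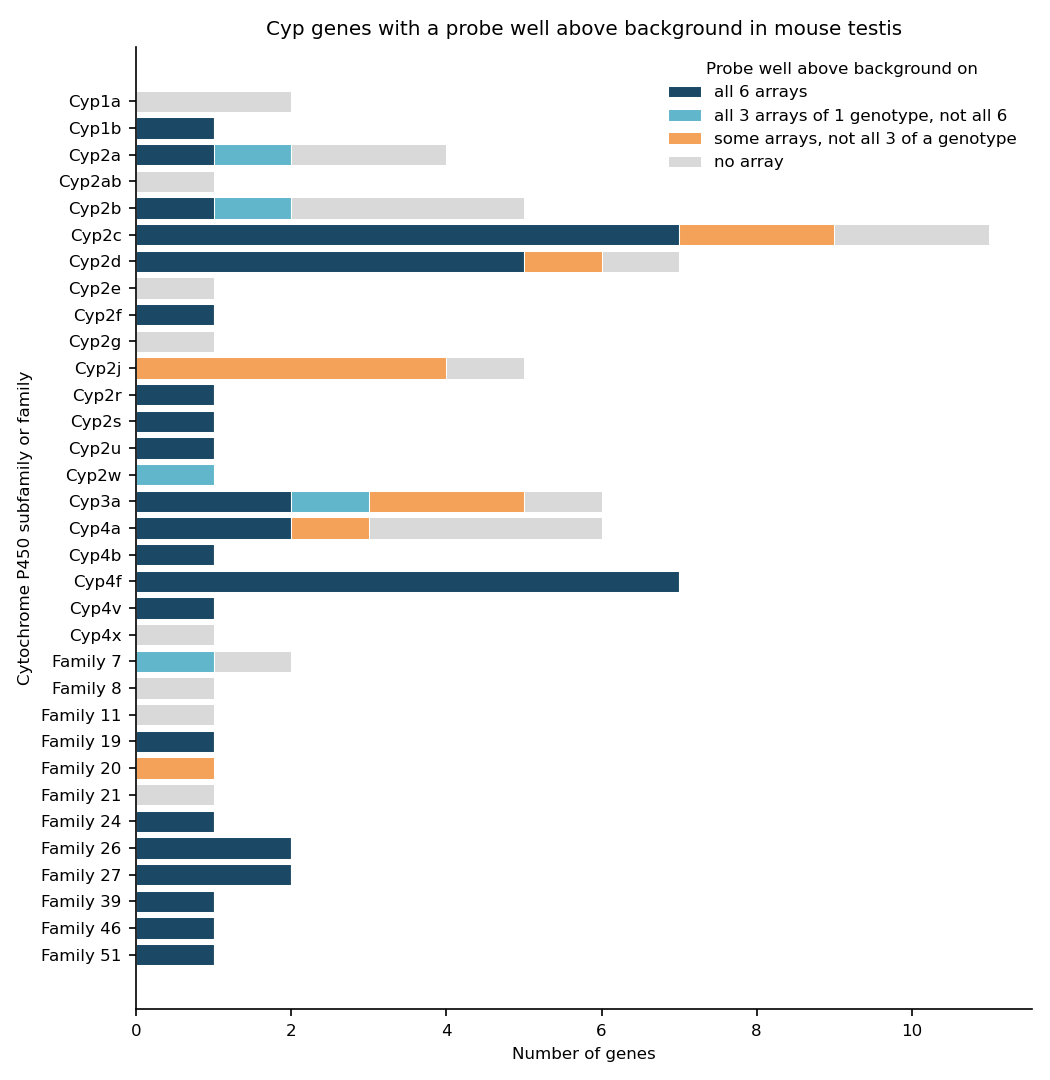
Number of Cyp genes in each subfamily (families 1 to 4) or family (7 and above), split by the arrays on which a probe of the gene was well above background. All 7 Cyp4f genes were detected on all 6 arrays, and none of the 5 Cyp2j genes was detected on all 3 arrays of a genotype.

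Among the higher families, 10 of 15 genes were detected. Cyp19a1 (aromatase, which makes oestrogens from androgens), Cyp24a1, Cyp26a1, Cyp26b1, Cyp27a1, Cyp27b1, Cyp39a1, Cyp46a1 and Cyp51 were above background on all 6 arrays. Cyp7b1, an oxysterol hydroxylase, was above background on the 3 wt and on 2 Prss55-/- arrays. The liver enzymes of bile acid synthesis Cyp7a1 and Cyp8b1 were above background on no array. The same held for the adrenal enzymes Cyp11b2 (aldosterone synthase) and Cyp21a1 (the steroid hydroxylase needed for corticosterone and aldosterone). Of 6 liver markers on the array, albumin, Apoa1 and transthyretin were likewise not detected, while Apoa2, Fgb and Tat were well above background on all 6 arrays. None of the 5 kidney markers was detected.

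A few probes lit up on a single array. The signal of a Cyp2j13 probe was 7.15 in wt replicate 1 and between 2.68 and 2.82 on the other 5 arrays. A Cyp2j5 probe gave 7.84 in wt replicate 3 and between 2.77 and 2.86 elsewhere. A Cyp3a13 probe gave 6.05 in wt replicate 1 and between 2.71 and 3.46 elsewhere. These genes do not count as detected, and none of them was tested.

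Cyp2a4 was the only P450 gene whose difference between the genotypes passed the test over all probes, on a dim probe that entered the test only through wt, where it was brighter. On its tested probe the log2 signal was 5.31, 4.68 and 5.19 in Prss55-/- testis and 6.73, 6.17 and 6.77 in wt testis. All Prss55-/- values lay below all wt values, with a gap of 0.86. The mean fell from 6.56 ± 0.34 in wt to 5.06 ± 0.33 in Prss55-/- (SD, n = 3 each), a log2 difference of -1.50 with a standard error of 0.22, which leaves 35.4% of the wt signal (limma adjusted p = 0.045). An exact two-sided permutation test of this probe gave p = 0.1, the smallest that 3 against 3 arrays can give. The paper counts Cyp2a4 among the genes lower on its arrays, but its qRT-PCR put the change of this gene in Prss55-/- testis below 2-fold.

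This Cyp2a4 probe was well above background on all 3 wt arrays and on 2 of 3 Prss55-/- arrays, and with the test limited to probes well above background on all 6 arrays it was not tested. The dimmest signals that counted as well above background lay between 4.79 and 5.26 on the 6 arrays. The call was also fragile. With slide as a random block the adjusted p was 0.055. It passed 0.05 in 4 of 13 alternative analyses and lay between 0.021 and 0.17 over them, and it was lost without Prss55-/- replicate 2 (0.12), Prss55-/- replicate 3 (0.16), wt replicate 1 (0.17), wt replicate 2 (0.062) or wt replicate 3 (0.074). The difference kept its sign in all 13 and was smallest after normexp background correction, at -0.60. The offset of that correction shrinks log2 differences of dim probes.

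Neither of the Cyp2a4 3′ probes was well above background on any array. By the looser flag the first was above background on all 6 arrays and the second on 3. The first gave 4.33 to 4.48 in Prss55-/- and 3.90 to 4.42 in wt testis, and the second 2.71 to 2.92 and 2.71 to 3.38. The genotypes overlapped on both. The Cyp2a5 probe gave 3.89, 4.10 and 4.13 in Prss55-/- and 4.22, 3.54 and 4.82 in wt testis, and the Cyp2a22 probe 2.95 to 3.16 and 3.02 to 3.17, again not well above background on any array. Cyp2a12 was well above background on all 6. Its signal was 11.51, 11.25 and 11.14 in Prss55-/- and 11.50, 11.56 and 11.74 in wt testis. The genotypes overlapped, and the log2 difference of -0.30 (standard error 0.11) did not pass (limma adjusted p = 0.23).

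**Figure D2:**
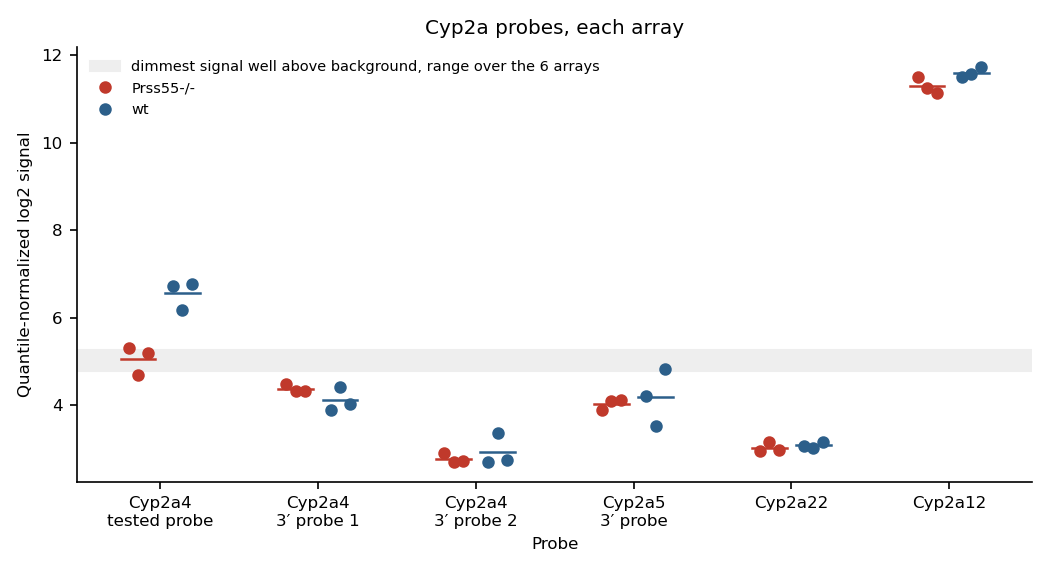
Quantile-normalized log2 signal of the 6 Cyp2a probes on each array, Prss55-/- in red and wt in blue, with a line at each mean (n = 3). The grey band is the range over arrays of the dimmest signal that was well above background. Only the tested Cyp2a4 probe separates the genotypes, and its Prss55-/- values lie just above, in and just under the band.

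The neighbourhood of Cyp2a4 on chromosome 7 was examined next. Within 1 Mb on either side, 45 other probes were tested. None passed an adjusted p of 0.05 in limma, and the median log2 difference of the 45 was -0.01. Of them, 8 had an unadjusted p below 0.05 in either direction. By that rule 9.29% of all tested probes were lower and 9.82% higher. The cluster holds 12 Cyp genes of the a, b, f, g and s subfamilies between chr7:26587504 and chr7:27918629. Besides the Cyp2a genes, Cyp2b13, Cyp2b19, Cyp2f2 and Cyp2s1 were tested, with differences of 0.29, -0.06, -0.16 and -0.06 and adjusted p from 0.48 to 0.94.

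Over all 57 tested member probes, in 46 genes, differences were small and more often negative than positive. The median log2 difference was -0.09, against 0.00 over the 28606 probes tested, and 37 of 57 probes (64.9%) were lower in Prss55-/- testis against 49.4% of all. At an adjusted p of 0.05, 1 of 57 probes was lower and none higher, where 0.65% of all tested probes were lower by that rule. An unadjusted p below 0.05 was reached by 16 member probes (28.1%, in 14 genes) that were lower, where the share of all tested probes was 9.29%, and by 4 (7.02%) that were higher, where it was 9.82%. The genotypes did not overlap for 18 probes (31.6%) that were lower, against 12.9% of all tested probes, and for 5 (8.77%) that were higher, against 13.4%. Among the 52 member probes well above background on all 6 arrays, 14 were lower at an unadjusted p below 0.05. With that filter the share of all tested probes was 9.31%. These shares are a description, since Cyp2a4 and the other 4 genes that entered through 1 genotype count in them. Many of the probes measure neighbouring genes or the same gene, so they are not independent.

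An unadjusted p below 0.05 together with a change of at least 2-fold was reached by 2 member probes, Cyp2a4 and Cyp2c37 (3.51%), where 0.608% of all tested probes met that rule. Both were also the members found by the methods' t-test at those thresholds, and neither remained after Benjamini-Hochberg adjustment of that test. Whole-testis RNA cannot tell fewer cells of a type from less RNA per cell.

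**Figure D3:**
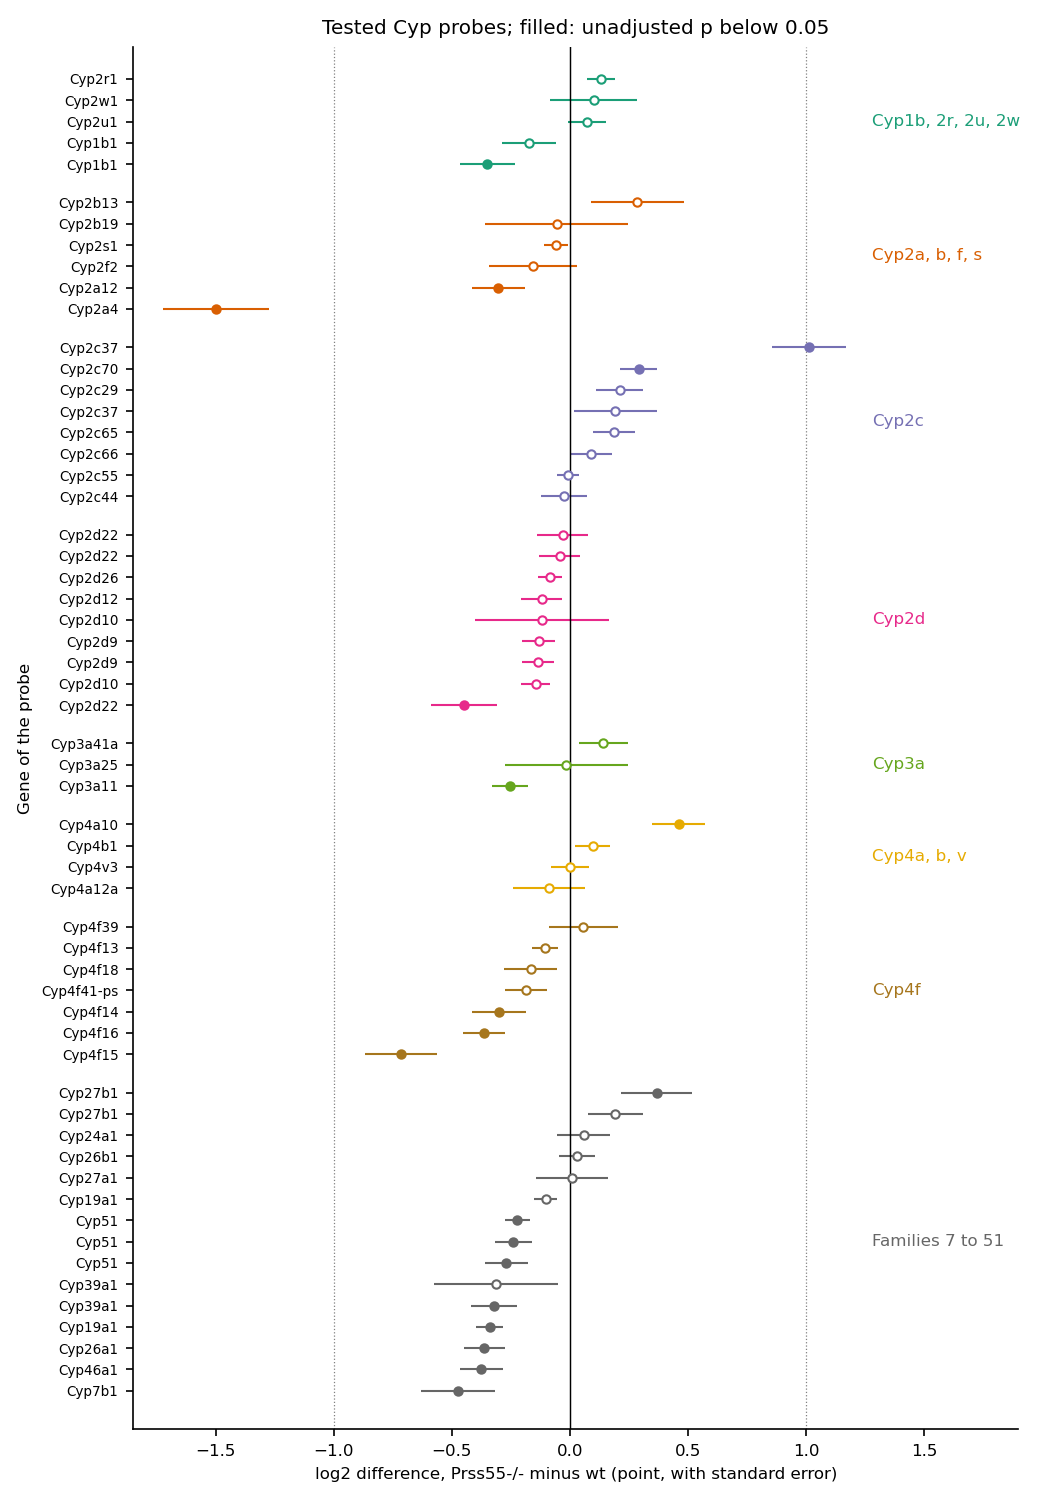
Log2 difference, Prss55-/- minus wt, of the 57 tested Cyp probes with its standard error, grouped by subfamily, and filled where the unadjusted p was below 0.05. Dotted lines mark 2-fold. Cyp2a4 (-1.50) and Cyp2c37 (1.01) lie past 2-fold, all 9 Cyp2d probes lie below 0 (the brightest Cyp2d22 probe turned positive with 75th percentile scaling and with normexp, and a Cyp2d10 probe with normexp) and 6 of 8 Cyp2c probes above it (7 with 75th percentile scaling).

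Cyp2c37, a liver epoxygenase of arachidonic acid, had the largest positive difference. Its brighter probe, at chr19:40086467-40086526, gave 6.98, 6.84 and 6.81 in Prss55-/- and 6.09, 6.00 and 5.50 in wt testis. The groups did not overlap. The log2 difference was 1.01 with a standard error of 0.16 and missed the threshold (limma adjusted p = 0.051), and 4 of 14 alternatives put it below 0.05. With normexp the difference was 0.46. The gene's other probe, at chr19:40076439-40076498, gave 6.35, 6.43 and 6.20 against 5.78, 6.14 and 6.48, with a difference of 0.19, a standard error of 0.18 and overlapping groups. These were the only tested probes of a member that lay more than 0.5 apart. The brighter probe is listed for Cyp2c37 alone and the other one for Cyp2c37 and Cyp2c50. They are shown to let a reader see that they are different sites, the first with its opening 30 bases.
Cyp2c37, probe listed for 1 gene: cacactggacacactgacttttatccagtt
Cyp2c37, probe listed for Cyp2c37 and Cyp2c50: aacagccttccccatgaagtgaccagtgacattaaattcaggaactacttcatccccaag

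The Cyp2c cluster of chromosome 19, between 39116674 and 40228028, had 7 tested probes in 6 genes. Of these, 6 were higher in Prss55-/- testis, with a median of 0.19, and 3 were higher without overlap between the genotypes (13.4% of all tested probes). Cyp2c70, a bile acid hydroxylase of rodent liver, gave 8.34, 8.40 and 8.26 against 8.01, 7.93 and 8.18, a difference of 0.29 (standard error 0.08, adjusted p = 0.13). Cyp2c65 and Cyp2c29 were higher by 0.19 and 0.21. Cyp2c55 differed by -0.01 with a standard error of 0.05, and by 0.06 with 75th percentile scaling.

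The Cyp2d cluster of chromosome 15, between 82201687 and 82620634, had all 9 tested probes lower in Prss55-/- testis, although the brightest Cyp2d22 probe (-0.03) turned positive with 75th percentile scaling (0.010) and with normexp (0.0377), and the dimmer Cyp2d10 probe with normexp (0.0016). Their median was -0.12, 3 were lower without overlap between the genotypes (12.9% of all tested probes), and adjusted p ran from 0.17 to 0.90. A Cyp2d22 probe stood out with 7.07, 6.72 and 6.82 against 7.18, 7.21 and 7.58, a difference of -0.45 (standard error 0.14, adjusted p = 0.17). The other Cyp2d22 probes differed by -0.04 and -0.03. Cyp2d26 gave 13.75, 13.88 and 13.80 against 13.89, 13.88 and 13.90, a difference of -0.08.

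The Cyp4f cluster of chromosome 17, between 32629616 and 33088284, had 5 of 6 probes lower, with a median of -0.24. Cyp4f15, at chr17:32840088-32840147, gave 6.90, 6.46 and 6.45 in Prss55-/- and 7.51, 7.27 and 7.17 in wt testis, without overlap. Its difference was -0.72 with a standard error of 0.15 and an adjusted p of 0.088, and it passed only without Prss55-/- replicate 1 (adjusted p = 0.027). Cyp4f16 gave 5.53, 5.74 and 5.77 against 5.92, 6.10 and 6.11 (difference -0.36, adjusted p = 0.11), and Cyp4f14, a leukotriene hydroxylase, was lower by 0.30 at an adjusted p of 0.23. Cyp4f39, whose human counterpart makes skin ceramides, differed by 0.06 with a standard error of 0.15.

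Cyp4a10, a fatty acid hydroxylase known as a target of PPARα in liver, was higher in Prss55-/- testis. Its tested probe gave 7.34, 7.38 and 7.16 against 6.92, 6.97 and 6.61, a difference of 0.46 with no overlap (standard error 0.11, adjusted p = 0.11). The other 3 Cyp4a10 probes were well above background on no array. Cyp1b1, which oxidises oestrogens and retinoids, was lower by 0.35 and by 0.17 on its probes. The first gave 12.15, 12.16 and 11.92 against 12.42, 12.24 and 12.62, and neither passed (adjusted p = 0.19 and 0.45). Cyp3a11, the chief steroid-hydroxylating Cyp3a of liver, was lower by 0.25 on a probe that is listed for 4 genes.

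None of the P450s of cholesterol synthesis and oxidation passed the adjusted test, and most of their probes were lower in Prss55-/- testis. The list holds 7 genes, of which 5 were tested with 8 probes. Of these probes, which include 3 of Cyp51 and 2 of Cyp39a1, 7 were lower with a median of -0.29. An unadjusted p below 0.05 was reached by 6 that were lower (9.29% of all tested probes), and the genotypes did not overlap for 6 (12.9% of all). The lowest adjusted p was 0.10.

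Cyp51, which removes a methyl group from lanosterol on the way to cholesterol and makes meiosis-activating sterols in germ cells, gave the same answer on all 3 probes. The brightest, at chr5:4083236-4083295, gave 12.44, 12.59 and 12.39 in Prss55-/- and 12.74, 12.61 and 12.88 in wt testis. The 3 differences were -0.27, -0.24 and -0.22, with adjusted p of 0.19, 0.18 and 0.10, and in each the genotypes were apart. Cyp46a1, the cholesterol hydroxylase of brain, gave 7.63, 7.87 and 7.56 against 8.10, 7.98 and 8.11, a difference of -0.38 (standard error 0.09, adjusted p = 0.11).

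Cyp39a1, an oxysterol hydroxylase, differed by -0.32 and -0.31 on its probes. The first kept the genotypes apart, with 10.14, 10.36 and 10.08 against 10.61, 10.39 and 10.54. The second gave 6.74 in Prss55-/- replicate 1 and 7.62 to 7.77 on the other 5 arrays. Cyp7b1 gave 5.53, 5.02 and 5.48 against 5.63, 5.89 and 5.93, a difference of -0.48 (standard error 0.16, adjusted p = 0.19) on a dim probe that entered the test through wt. With normexp the Cyp7b1 difference was -0.14. Cyp27a1, the mitochondrial sterol hydroxylase, differed by 0.01 with a standard error of 0.15.

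In the steroid hormone list only Cyp19a1 was tested, and both of its probes were lower. The one at chr9:54020585-54021182 gave 7.01, 7.11 and 6.99 in Prss55-/- and 7.35, 7.35 and 7.43 in wt testis, a difference of -0.34 with a standard error of 0.06 (adjusted p = 0.055). With the test limited to probes above background on all 6 arrays its adjusted p was 0.0498. The brighter probe, at chr9:54013778-54013837, gave 8.14, 8.25 and 8.16 against 8.28, 8.27 and 8.31, a difference of -0.10 (adjusted p = 0.33).

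Neither retinoic acid hydroxylase passed the adjusted test. Cyp26a1, at chr19:37775566-37775625, gave 7.77, 8.03 and 7.87 in Prss55-/- and 8.18, 8.22 and 8.36 in wt testis, a difference of -0.36 with no overlap (standard error 0.09, adjusted p = 0.11). Cyp26b1, which clears retinoic acid in the fetal testis, gave 13.42, 13.23 and 13.46 against 13.26, 13.40 and 13.36, a difference of 0.03 with a standard error of 0.08. The difference between the genes was not tested.

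All 4 probes of the vitamin D list were higher in Prss55-/- testis, by 0.06 to 0.37, and none passed. Cyp2r1, which makes the circulating form of the vitamin, gave 9.72, 9.58 and 9.63 against 9.51, 9.58 and 9.45, apart by a narrow gap (difference 0.13, adjusted p = 0.30). Cyp27b1, which makes the active hormone, was higher by 0.19 and 0.37 on its probes (adjusted p = 0.42 and 0.26). Cyp24a1, which inactivates it, differed by 0.06 with a standard error of 0.11.

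**Figure D4:**
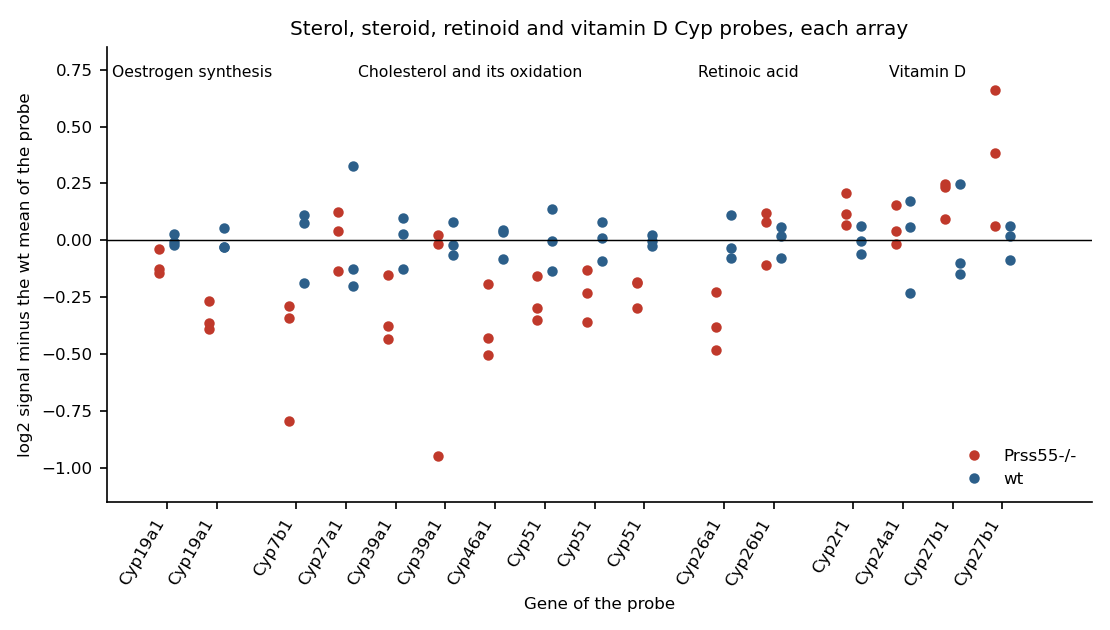
Log2 signal of each array minus the wt mean of the probe, for the 16 tested probes of the steroid, cholesterol, retinoic acid and vitamin D lists, Prss55-/- in red and wt in blue. Both Cyp19a1 probes, Cyp7b1, Cyp46a1, the brighter Cyp39a1 probe, all 3 Cyp51 probes and Cyp26a1 have every Prss55-/- array below every wt array. Cyp7b1 entered the test only through wt. Cyp2r1 has every Prss55-/- array above every wt array. Of all tested probes, 12.9% were lower and 13.4% higher without overlap.

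Genes that serve P450 enzymes were read from a separate list of 41 genes, of which 39 were on the array and 36 were tested. None passed an adjusted p of 0.05 in limma or in the methods' t-test. At an unadjusted p below 0.05 in limma 3 of the 36 genes were higher and 1 lower, counting a gene if any of its probes passed. The shares over all tested probes, which count probes and not genes, were 9.82% and 9.29%. The median difference of the 54 partner probes was -0.01. Por gave 12.47, 12.15 and 12.19 in Prss55-/- and 12.38, 12.29 and 12.51 in wt testis, a difference of -0.12 with a standard error of 0.10. Its mitochondrial counterparts Fdx1 and Fdxr differed by -0.06 to -0.17 and by -0.16.

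Cyb5r3, the cytochrome b5 reductase that supplies electrons to some P450 reactions, was the partner gene with the smallest p. Its brighter probe gave at least 11.89 on each Prss55-/- array and 11.75, 11.57 and 11.59 in wt testis. The other gave 8.90, 9.01 and 9.12 against 8.52, 8.64 and 8.60. Both kept the genotypes apart, with differences of 0.32 (adjusted p = 0.088) and 0.43 (adjusted p = 0.058). The second passed only without Prss55-/- replicate 1 (0.034). Alas1, which starts haem synthesis, differed by -0.32 on both probes with standard errors of 0.15.

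Some lists of cell type and tissue markers had summed signals that did not overlap between the genotypes, and their part in the results was not tested. Of 6 listed Leydig cell markers 5 were on the array, and their summed linear signal (Star, Hsd3b1, Hsd3b6, Hsd17b3 and Lhcgr) ran from 16817 to 26426 in Prss55-/- and 27826 to 31036 in wt testis. No Leydig marker passed the adjusted test, and all were detected. At an unadjusted p below 0.05, 2 of 5 were lower, where 9.29% of all tested probes were. Hsd3b1, the steroid dehydrogenase of Leydig cells, was the brightest of the 5 and the only marker of them without overlap between the genotypes. It was lower by 0.67 (limma unadjusted p = 0.0017), and Hsd3b6 was higher by 0.37. Star, the cholesterol carrier, gave 12.68 in Prss55-/- replicate 1 but 10.49 and 10.46 in the other Prss55-/- arrays, against 11.42 to 12.34 in wt. Without Prss55-/- replicate 1, 16 member probes were lower at an unadjusted p below 0.05, where the share of all tested probes was 9.76%. Whether this count and the Leydig markers are linked was not tested.

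The macrophage list summed to 2877 to 3119 in Prss55-/- and 3219 to 3246 in wt testis, and the liver list to 868 to 931 and 684 to 800. No marker of either list passed the adjusted test. Of the macrophage probes only the brightest Csf1r probe kept the genotypes apart (difference -0.12, limma adjusted p = 0.34). In the liver list Fgb (0.45) and Tat (0.26) were higher without overlap. Apoa2 overlapped, and albumin, Apoa1 and transthyretin were not detected. The epididymis list summed to 57.9 to 206 and 427 to 475 with Adam7, Crisp1, Lcn5 and Lcn8 not detected, and Rnase10 had a log2 signal of 7.29, 4.64 and 5.44 against 8.60, 8.80 and 8.71. The spermatid, spermatocyte, Sertoli cell, fat, blood and kidney lists overlapped between the genotypes, and the spermatid and spermatocyte markers were all detected in this testis RNA.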

How the data were processed

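Total testis RNA, 3 samples of each genotype, was hybridised to 1-colour Agilent mouse arrays. Per the file headers, the authors extracted spot intensity with Feature Extraction 10.7.3.1, which subtracts background, and the headers name the build mm9. The deposited matrix holds log2 values of the same arrays. Its column medians were 7.73 and each column correlated at 0.9997 or more with the log2 intensity of its own array, so its scale and direction are known. Its medians are nearly equal, and the methods name quantile normalization. Whether it was centred or changed in a further step is unknown.

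Here the log2 of the processed intensity (floor 1) of non-control spots was quantile normalized, without outlier spots, and spots of a probe were averaged. A probe was kept if every array of either genotype showed it well above background, and limma 3.58.1 in R 4.3.3 compared the genotypes (two-sided), with Benjamini-Hochberg adjustment over 28606 probes. In 2 cases an outlier spot left a tested probe without a value on 1 array, and limma fitted the other arrays. The fit was tested on simulated data. The labels number the mice without saying more about them, so p-values measure the spread between these samples, whose number limits the precision.

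Named genes were all Cyp2a members, members past an adjusted p of 0.05 or past an unadjusted p of 0.05 with 2-fold, members of the role lists, and the 8 with the largest difference among probes above background on all 6 arrays whose genotypes did not overlap. Cyp3a11, Cyp4f14, Cyp4f39 and the other Cyp2b, Cyp2c, Cyp2d, Cyp2f and Cyp2s genes with values were named after these were seen. The brightest probe stood for a gene. The members and lists were chosen with earlier results of these data known. Listed transcripts were matched to RefSeq symbols (GRCm38.p6) for 106 of 114 probes. Alternatives were 75th percentile scaling, normexp (offset 50), the deposited matrix, other filters, slide as a random block (duplicateCorrelation), a replicate block, leaving out each array, and the methods' t-test. Deviations of arrays with the same replicate number correlated at -0.05, -0.02 and -0.11, and those with different numbers at -0.06 to 0.11. With so few arrays this cannot show whether the numbers pair the arrays, and the labels do not say.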

Additional observations from a re-analysis of the deposited data

How the results depend on the processing

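Cyp2a4 kept its direction under every alternative that tested it, but its call did not hold under most. The difference and adjusted p were -1.39 and 0.053 with 75th percentile scaling, -1.50 and 0.11 with no filter on dim probes, -1.50 and 0.055 with slide as a random block, and -1.50 and 0.15 with the methods' t-test. Leaving out single arrays gave differences of -1.69 to -1.31. The filter for all 6 arrays removed its probe. The number of Cyp genes past an adjusted p of 0.05 was 2 with normexp (Cyp2a4 and Cyp2c37), 2 with the filter for all 6 arrays (Cyp19a1 and Cyp2c37), 0 with no filter, the methods' t-test or slide as a random block, and 0 to 3 without single arrays. With 75th percentile scaling it was 1, Cyp2c37 in place of Cyp2a4. The number past an unadjusted p of 0.05 and 2-fold was 0 with normexp, 1 with the filter for all 6 arrays, and 1 to 2 without single arrays. The normexp offset shrinks log2 differences of dim probes, which makes 2-fold harder to reach there. Partner genes past an adjusted p of 0.05 numbered 0 to 1 without single arrays. The count of Cyp probes lower at an unadjusted p below 0.05 was added as a result after seeing the data. It was 10 to 16 of 57 without single arrays, where the share of all tested probes was 6.33% to 9.76%. Without Prss55-/- replicate 3 the count was 10, where that share was 6.33%. Over all 28606 probes, leaving out Prss55-/- replicate 1 gave 855 calls and leaving out the others 38 to 377. With the replicate block, Cyp2a4 had a difference of -1.50 and an adjusted p of 0.031, 1 Cyp gene passed and 13 probes passed in all, against 346 without it. Whether the replicate numbers pair the arrays is not known, so this says nothing of the size of the effects.

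Differences near 0 changed sign. The brightest Cyp2d22 probe went from -0.03 to 0.010 with 75th percentile scaling and to 0.0377 with normexp, and without single arrays ranged from -0.134 to 0.0681. Without single arrays Cyp24a1 ranged from -0.0564 to 0.145, Cyp26b1 from -0.0143 to 0.0999 and Cyp27a1 from -0.0906 to 0.174. The cause of these changes was not tested. The brightest probe of each of the other 15 named genes kept its direction. The median difference of the Cyp probes lay between -0.10 and -0.05. Dim probes limit the values of Cyp2a4, Cyp7b1, Cyp2b13, Cyp2w1 and Cyp3a25, and normexp made several differences smaller, at -0.14 for Cyp7b1, 0.46 for Cyp2c37, 0.29 for Cyp4a10, -0.41 for Cyp4f15, -0.21 for Cyp4f16 and -0.05 for the brightest Cyp19a1 probe.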
